A study of Mus musculus with 10 samples.

Results

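The 9 genes described here encode parts of the T cell receptor complex and the proteins that carry its signal. They are Cd3e, Cd3d, Cd3g and Cd247 (the CD3 epsilon, delta, gamma and zeta chains), the co-receptors Cd4 and Cd8a, the costimulatory receptor Cd28, and the tyrosine kinases Lck and Zap70. They were chosen by gene symbol, and all 9 were found among the 24358 gene symbols of the deposited tables. The receptor of a T cell recognises antigen through its variable chains, which have almost no tail inside the cell, so the signal passes through the CD3 and zeta chains. Lck, held at the co-receptors CD4 and CD8, phosphorylates motifs in these chains, and ZAP-70 then docks there and phosphorylates adaptor proteins. Mouse skin holds gamma-delta T cells in the epidermis and both gamma-delta and alpha-beta T cells in the dermis. All of them need CD3 chains, though not necessarily every one, to bring their receptor to the surface.

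RNA came from full-thickness biopsies of dorsal skin of 5 C57Bl/6 mice that carry an interleukin-17C transgene and develop psoriasis-like lesions, with 1 lesional (involved) and 1 uninvolved biopsy from each mouse. The labels call 3 mice IL-17C+ (2275, 2296 and 2237) and 2 mice IL-17C+KO (2465 and 2392), the knockout being of interleukin-6 according to the series title, so all 5 carry the transgene and no mouse without it was analysed here. The line is known as one in which keratinocytes overexpress IL-17C; the promoter is not given in the labels, and the mice were taken at 10 or 14 weeks of age without a statement of which mouse was which. The 10 libraries held 21056850 to 31072491 counts, of which the 9 genes took 220 to 902.

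The targeted gene went against its label: Il6 had 4 to 9 counts in uninvolved and 18 to 69 in lesional libraries labelled IL-17C+, but 55 and 71 in uninvolved and 300 and 315 in lesional libraries labelled IL-17C+KO. Counts over the whole gene do not show which exons were covered. The 2 groups are therefore named by their labels, and each direction between them rests on those labels. A count of 0 would allow up to 3 counts, which are 0.0965 to 0.142 CPM here (counts scaled to the library total). Every one of the 9 genes had at least 4 counts in every library.

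Cd3e, Cd3d and Cd3g lie within 40056 bases of chromosome 9 (GRCm38), and Cd247 lies on chromosome 1. Cd3d (chr9:44981786-44987339, plus strand) and Cd3g (chr9:44969572-44980431, minus strand) are transcribed away from each other, with starts 1355 bases apart, and Cd3e (chr9:44998740-45009627, minus strand) starts 27841 bases from Cd3d. The windows below are the 250 bases before the RefSeq start of the 4 receptor chains (GRCm38.p6), 5′ to 3′ on the strand of each gene, and are shown because the levels of these 4 genes moved together over the libraries. Capitals mark AGGAAG, the core of ETS factor sites, and CAGGTG, an E-box, each searched on both strands.
Cd3e, chr9:45009612-45009861, minus strand: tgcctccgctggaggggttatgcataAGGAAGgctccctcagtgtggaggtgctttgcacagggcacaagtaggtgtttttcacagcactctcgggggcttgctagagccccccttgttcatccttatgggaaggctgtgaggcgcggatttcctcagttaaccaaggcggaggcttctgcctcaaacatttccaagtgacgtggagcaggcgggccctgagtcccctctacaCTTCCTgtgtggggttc
Cd3d, chr9:44981536-44981785, plus strand: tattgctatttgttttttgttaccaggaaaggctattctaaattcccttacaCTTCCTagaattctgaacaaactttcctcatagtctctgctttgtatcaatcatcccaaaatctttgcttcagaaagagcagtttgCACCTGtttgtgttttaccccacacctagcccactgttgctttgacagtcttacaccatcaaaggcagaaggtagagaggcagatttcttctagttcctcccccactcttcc
Cd3g, chr9:44980432-44980681, minus strand: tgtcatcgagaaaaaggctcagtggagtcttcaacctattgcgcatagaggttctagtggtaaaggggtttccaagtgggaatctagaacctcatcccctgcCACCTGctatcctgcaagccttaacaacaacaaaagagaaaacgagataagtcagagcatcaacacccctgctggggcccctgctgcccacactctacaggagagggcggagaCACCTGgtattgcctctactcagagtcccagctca
Cd247, chr1:165788431-165788680, plus strand: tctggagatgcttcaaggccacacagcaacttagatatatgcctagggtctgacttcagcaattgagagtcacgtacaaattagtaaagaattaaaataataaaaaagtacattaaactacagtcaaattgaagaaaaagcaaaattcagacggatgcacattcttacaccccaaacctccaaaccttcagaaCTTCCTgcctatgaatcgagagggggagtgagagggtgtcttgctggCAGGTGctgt
The Cd3e window held the ETS core 224 and 17 bases before the start and no E-box. Cd3d held 1 ETS core (198 bases before the start) and 1 E-box (112 bases). The Cd3g window had no ETS core and 2 E-boxes, 148 and 35 bases before the start. In Cd247 the ETS core stood 57 bases and the E-box 10 bases before the start. Of 32851 promoter windows of this length, 29.5% held the ETS core and 17.2% the E-box, so both are common letters. TGTGGT, the core of RUNX sites, was in none of the 4 windows and in 14% of all of them. RefSeq promoters were found for 7 of the 9 genes (not for Cd4 and Cd28).

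Transcripts of the receptor complex were scarce in whole skin, and the CD3 gamma chain was the most abundant of them. On the per-length scale (deposited FPKM, mean ± SD over the 10 libraries), Cd3g stood at 5.12 ± 4.16, followed by Cd247 at 1.79 ± 1.22, Lck at 1.61 ± 0.527 and Cd3d at 1.52 ± 0.738. Below these came Cd3e at 0.859 ± 0.542, Zap70 at 0.653 ± 0.368 and Cd4 at 0.565 ± 0.334. Cd8a at 0.183 ± 0.103 and Cd28 at 0.12 ± 0.0409 were lowest. Each pair of neighbours in this order differed by less than the larger SD of the pair, except Cd4 and Cd8a. Between the highest and the lowest library the level changed most for Cd3g and Zap70, by 10.4-fold in CPM, and for Cd3e, by 9.64-fold, and least for Cd28, by 3.02-fold. In whole tissue, fewer T cells and less RNA per T cell cannot be told apart.

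**Figure D1:**
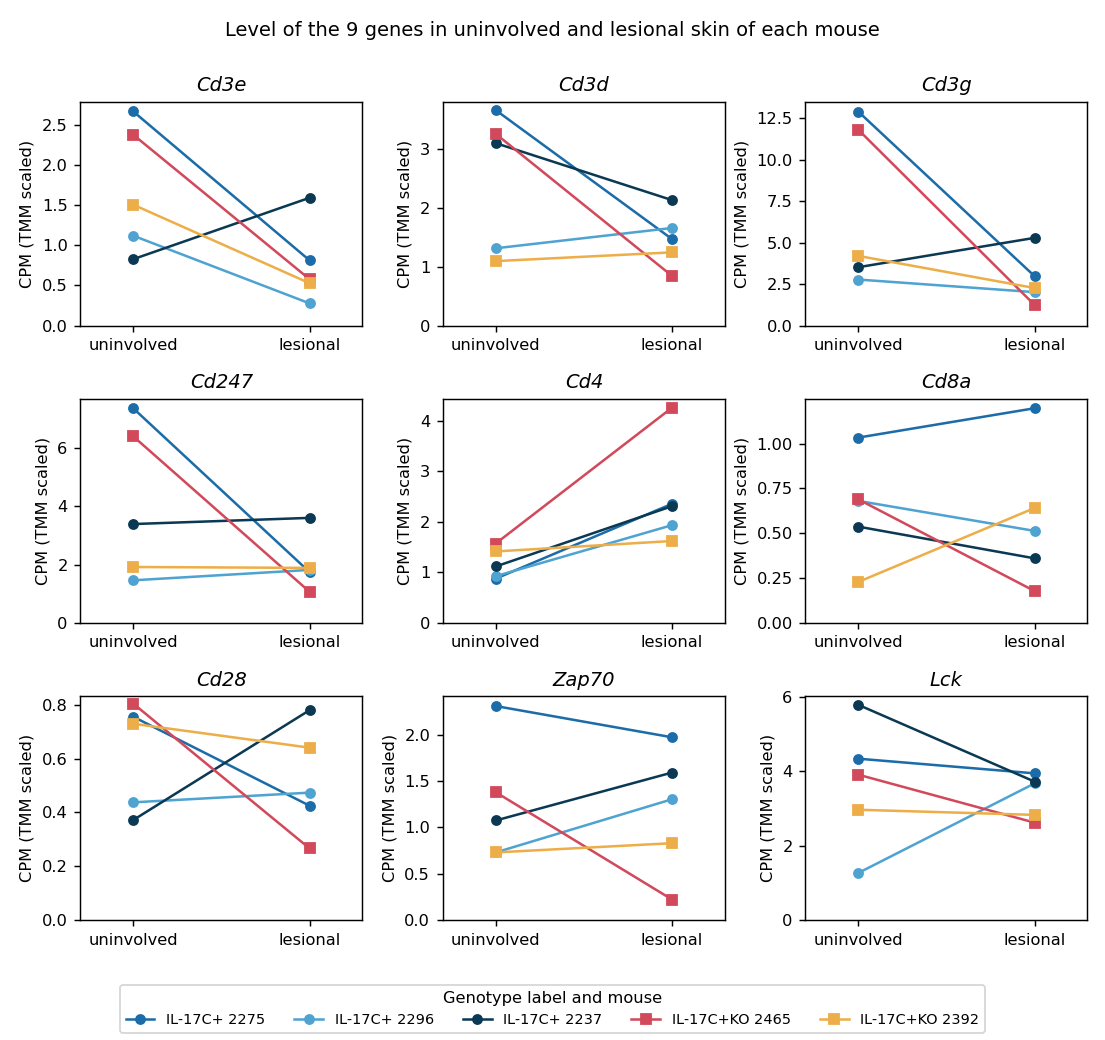
Level of each of the 9 genes (y axis, CPM scaled by TMM, starting at 0) in uninvolved and lesional skin (x axis); each line joins the 2 biopsies of 1 mouse, with circles for mice labelled IL-17C+ and squares for IL-17C+KO. Cd4 was higher in lesional skin in 5 of 5 mice, while Cd3e and Cd3g were lower in 4 mice and higher in mouse 2237.

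The first question was how these genes differ between the lesional and the uninvolved biopsy of each mouse. In lesional skin the Cd3e, Cd3g and Lck transcripts were lower in 4 of 5 mice, and the Cd4 transcript was higher in 5 of 5. Cd3d, Cd247, Cd8a and Cd28 were lower in 3 mice and Zap70 in 2. None of the 9 genes passed the threshold, a Benjamini-Hochberg adjusted p of 0.05 over all genes, in edgeR's quasi-likelihood test with the mouse as a block. The count of genes past it was 0 of 9 in IL-17C+ mice (0% of 16083 genes tested), 0 of 9 in mice labelled IL-17C+KO (0.0124%) and 0 of 9 over all 5 mice (0.0497%). At an unadjusted p under 0.05 the counts were 1 of 9 (Cd4) in IL-17C+ mice, against 6.41% of all genes; 0 of 9 in IL-17C+KO mice, against 13.5%; and 2 of 9 (Cd4 and Cd3e) over all 5 mice, against 21.5%.

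Cd3e, the CD3 epsilon chain, pairs with the gamma and the delta chain in the receptor complex. In the uninvolved IL-17C+ libraries of mice 2275, 2296 and 2237 it stood at 2.67, 1.12 and 0.826 CPM, and in the lesional ones of the same mice at 0.812, 0.276 and 1.59 CPM. The libraries labelled IL-17C+KO held 2.38 and 1.51 CPM in uninvolved skin (mice 2465 and 2392) and 0.577 and 0.528 CPM in lesional skin. Lesional skin was thus the lower of the pair in every mouse but 2237; the IL-17C+ groups overlap and the groups labelled IL-17C+KO do not. The lesional to uninvolved ratio was 0.243 to 0.351 in those 4 mice and 1.92 in mouse 2237, and the 95% counting interval lay on 1 side of 1 in all 5 mice. The fitted log2 change was -0.90 ± 0.68 (SE) in the 3 IL-17C+ mice, with an edgeR adjusted p of 0.831. In the 2 mice labelled IL-17C+KO it was -1.75 ± 0.80 (SE), with an edgeR adjusted p of 0.408. Both SEs rest on a spread estimated over all 10 libraries, not on the mice of 1 label. Over all 5 mice the log2 change was -1.26 ± 0.51 (SE), with an unadjusted p of 0.0397 and an edgeR adjusted p of 0.21. Without mouse 2237 it was -1.80 with an edgeR adjusted p of 0.0281, below the threshold, in a fit that called 1249 genes in place of 8; over the other alternatives the adjusted p ran from 0.0993 (DESeq2) to 0.528 (without mouse 2465).

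Cd3g, the gamma chain, held 12.9, 2.77 and 3.51 CPM in the uninvolved IL-17C+ libraries of mice 2275, 2296 and 2237. In lesional skin of the same mice it held 2.98, 2.01 and 5.28 CPM. Under the label IL-17C+KO it went from 11.8 to 1.24 CPM in mouse 2465 and from 4.20 to 2.26 CPM in mouse 2392. Uninvolved skin of mice 2275 and 2465 stood far above all other libraries, and mouse 2237 was again the exception in direction. The ratio was lowest in mouse 2465, at 0.105 with a counting interval of 0.0688 to 0.155, and highest in mouse 2237, at 1.5 with an interval of 1.15 to 1.97. The log2 change was -0.66 ± 0.68 (SE) in IL-17C+ mice, -2.03 ± 0.86 in IL-17C+KO mice (unadjusted p 0.0514, edgeR adjusted p 0.373) and -1.20 ± 0.56 over all 5 (edgeR adjusted p 0.27).

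Cd3d, the delta chain, is transcribed away from Cd3g. It stood at 3.66, 1.31 and 3.10 CPM in uninvolved and at 1.47, 1.66 and 2.13 CPM in lesional skin of IL-17C+ mice 2275, 2296 and 2237. In mouse 2465 it went from 3.26 to 0.843 CPM, and in mouse 2392 from 1.09 to 1.24 CPM. The counting interval of the ratio lay below 1 in mice 2275, 2237 and 2465 and included 1 in the other two, so mouse 2237 was lower here although its Cd3e and Cd3g were higher. The log2 change over all 5 mice was -0.66 ± 0.40 (SE; edgeR adjusted p 0.386).

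Cd247 encodes the zeta chain, which carries most of the phosphorylated motifs of the complex. Its level was 7.36, 1.46 and 3.39 CPM in uninvolved and 1.74, 1.82 and 3.60 CPM in lesional skin of mice 2275, 2296 and 2237. It was 6.40 and 1.92 CPM in uninvolved and 1.07 and 1.88 CPM in lesional skin of mice 2465 and 2392. Only mice 2275 and 2465 had ratios whose counting interval lay off 1, at 0.236 and 0.166, and in the other 3 mice the ratio was between 0.984 and 1.24. Over all 5 mice the log2 change was -0.83 ± 0.52 (SE; edgeR adjusted p 0.402). Cd247 (chr1:165788681-165877277, plus strand) overlaps Pou2f1 on the other strand, and whether the counting used strand is not given, so reads of the pair may not have been told apart.

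Cd4, the co-receptor of helper and regulatory T cells, went the other way from the CD3 chains. It stood at 0.875, 0.924 and 1.12 CPM in uninvolved and 2.36, 1.93 and 2.31 CPM in lesional skin of IL-17C+ mice 2275, 2296 and 2237. In mice 2465 and 2392 it stood at 1.57 and 1.41 CPM in uninvolved and 4.26 and 1.62 CPM in lesional skin. No lesional library of any mouse was as low as the highest uninvolved one. Of the 9 genes it was the 1 that was higher in lesional skin in all 5 mice, which 9.2% of all genes were. The ratio was 2.69, 2.09, 2.07 and 2.71 in mice 2275, 2296, 2237 and 2465, with counting intervals above 1, and 1.15 in mouse 2392, whose interval of 0.706 to 1.88 included 1. The log2 change was 1.17 ± 0.40 (SE) in IL-17C+ mice (unadjusted p 0.0246, edgeR adjusted p 0.736), 0.85 ± 0.49 in IL-17C+KO mice and 1.04 ± 0.28 over all 5 (unadjusted p 0.00725, edgeR adjusted p 0.118). DESeq2's Wald test on the same counts put it past the threshold over all 5 mice, at 1.07 with an adjusted p of 0.0259, where that test called 2036 genes in place of 8; over the other alternatives the adjusted p ran from 0.0527 to 0.369.

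Cd8a encodes the alpha chain of the co-receptor of cytotoxic T cells and was near the lower limit of these libraries. It held 26, 14 and 13 counts in uninvolved and 31, 13 and 12 in lesional skin of mice 2275, 2296 and 2237, or 1.03, 0.681 and 0.537 CPM and 1.20, 0.513 and 0.36 CPM. In mouse 2465 it went from 18 to 4 counts and in mouse 2392 from 5 to 17. These last opposite directions left a log2 change of -0.17 ± 0.91 (SE) in IL-17C+KO mice, and over all 5 mice it was -0.21 ± 0.49 (edgeR adjusted p 0.834).

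Cd28 encodes the receptor that gives T cells the second signal when it binds CD80 or CD86. It had 6 to 26 counts in a library, at 0.756, 0.438 and 0.372 CPM in uninvolved and 0.425, 0.474 and 0.78 CPM in lesional skin of mice 2275, 2296 and 2237. The libraries of mice 2465 and 2392 held 0.805 and 0.73 CPM in uninvolved and 0.266 and 0.641 CPM in lesional skin. The counting interval of the ratio included 1 in 4 of 5 mice, and the log2 change over all 5 was -0.26 ± 0.44 (SE; edgeR adjusted p 0.767).

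Lck, the kinase that starts the signal, lay between 2.62 and 3.94 CPM in every lesional library. It stood at 4.34, 1.26 and 5.79 CPM in uninvolved and 3.94, 3.67 and 3.72 CPM in lesional skin of mice 2275, 2296 and 2237. In mice 2465 and 2392 it stood at 3.91 and 2.96 CPM in uninvolved and at 2.62 and 2.83 CPM in lesional skin. The uninvolved biopsy of mouse 2296 was the lowest of all 10, and its ratio was 2.90 (counting interval 1.86 to 4.67). The other 4 mice had ratios of 0.643 to 0.954, and the interval lay below 1 in mice 2237 and 2465. The log2 change over all 5 mice was -0.01 ± 0.36 (SE; edgeR adjusted p 0.994), and with DESeq2's size factors it was 0.01.

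Zap70, the kinase that docks at the phosphorylated chains, had fitted values of opposite sign under the labels. It was at 2.31, 0.73 and 1.07 CPM in uninvolved and 1.97, 1.3 and 1.59 CPM in lesional skin of mice 2275, 2296 and 2237. In mouse 2465 it went from 36 counts (1.38 CPM) to 5 counts (0.222 CPM), and in mouse 2392 from 0.73 to 0.829 CPM. Mouse 2465 was the 1 mouse whose counting interval did not include 1. The log2 change was 0.37 ± 0.58 (SE) for IL-17C+ and -1.09 ± 0.79 for the mice labelled IL-17C+KO, and -0.14 ± 0.50 over all 5 (edgeR adjusted p 0.9).

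As a group, 8 of the 9 genes had a negative log2 change over all 5 mice, against 50.6% of all genes tested, and the median of the 9 was -0.26 against -0.01. In IL-17C+ mice 5 of 9 were negative (51.5% of all genes) and in mice labelled IL-17C+KO 8 of 9 (49.8%), with medians of -0.235 and -0.87. The count rested on mouse 2465: without it 4 of 9 were negative over the other 4 mice (median 0.0396), and under the label IL-17C+KO 4 of 9 (median 0.00697). In IL-17C+ mice it was 3 of 9 without mouse 2275 (median 0.188). Among the 8 over all mice is Lck, whose value was positive with DESeq2's size factors. Of the 9 genes, 3 (Cd3e, Cd3g and Lck) were lower in lesional skin in at least 4 of 5 mice, a share near the 32.6% of all genes. Cd3e and Cd3g were lower in 4 mice and higher in mouse 2237, as were 10.6% of all genes.

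**Figure D2:**
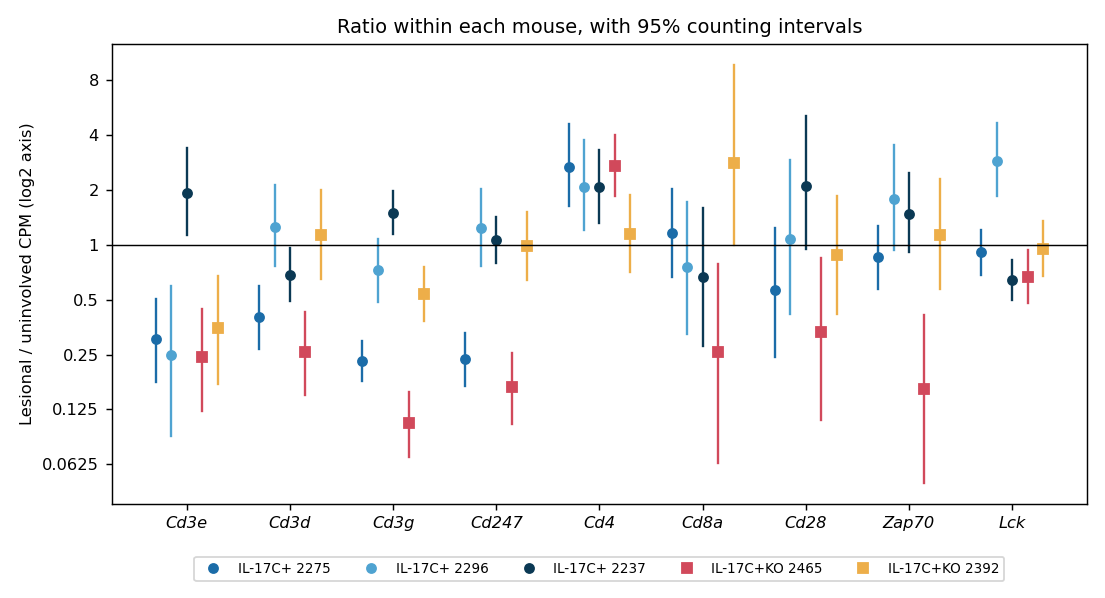
Lesional to uninvolved ratio of CPM (y axis, log2 scale) for each gene (x axis) and mouse (colour; circles IL-17C+, squares IL-17C+KO), with 95% counting intervals as bars and a line at 1. The ratios of Cd4 lay at 1.15 to 2.71, and those of Cd3g spread from 0.105 in mouse 2465 to 1.5 in mouse 2237.

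The next comparison asked whether the lesional change differed between the labels. For 8 of the 9 genes it was lower under the label IL-17C+KO (6 of 9 without mouse 2465), against 50% of all genes. Cd4 is among these 8 with a change that was positive under both labels, at 1.17 for IL-17C+ and 0.85 for IL-17C+KO. None of the differences passed the test (0 of 9 at an adjusted or an unadjusted p of 0.05, against 0% and 1.17% of all genes). The differences of largest size were those of Zap70, at -1.45 ± 0.98 log2 units (SE), and Cd3g, at -1.37 ± 1.08, each with an edgeR adjusted p of 1. In mouse 2465 the ratios of Cd3g, Cd247, Cd3d and Zap70 were the lowest of the 5 mice, while mouse 2392 had ratios between 0.539 and 1.14 for the same genes. The sign of the difference for Cd3e, Cd3d, Cd247, Cd4, Cd8a and Lck depended on which mouse was left out.

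DESeq2 and limma-voom, run on the same counts, also put 0 of the 9 genes past the threshold in this and each other comparison, with the exception of Cd4 given above. Genotype labels were then compared within each skin type, with 1 library per mouse. In lesional skin, Zap70, Lck and Cd3d were lower in both libraries labelled IL-17C+KO than in any labelled IL-17C+, 3 of 9 genes against 13.1% of all genes, and no gene of the 9 was higher without overlap (11.7% of all genes). Lesional Zap70 stood at 1.62 ± 0.335 CPM (SD, n = 3) against 0.526 ± 0.429 CPM (SD, n = 2). Its log2 difference was -1.57 ± 0.62 (SE), with an unadjusted p of 0.0474 and an edgeR adjusted p of 0.676. Lesional Lck averaged 3.78 ± 0.144 CPM (SD, n = 3) against 2.72 ± 0.147 CPM (SD, n = 2), a log2 difference of -0.44 ± 0.26 (SE; edgeR adjusted p 0.794). Cd3d stood at 1.75 ± 0.341 CPM (SD, n = 3) against 1.04 ± 0.283 CPM (SD, n = 2), a log2 difference of -0.715 ± 0.38 (SE; edgeR adjusted p 0.763). The lesional log2 difference of the other CD3 and zeta chains lay between -0.94 ± 0.54 (Cd3g) and -0.66 ± 0.50 (Cd247), and Cd4 was at 0.45 ± 0.47. In sign, 8 of 9 differences were negative (49.3% of all genes). At an adjusted p of 0.05, 0 of 9 genes passed (0% of 15691 genes), and at an unadjusted p 1 did (7.3%).

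In uninvolved skin the differences between the labels in the CD3 and zeta chains were within their errors. Log2 differences, IL-17C+KO minus IL-17C+, were 0.33 ± 0.62 (SE) for Cd3e, -0.31 ± 0.66 for Cd3d, 0.32 ± 0.77 for Cd3g and 0.02 ± 0.78 for Cd247, each smaller than its SE. The SEs leave room for larger differences, and with 1 mouse left out Cd3g ran from -0.63 to 1.33 and Cd3d from -1.32 to 0.27. Hair shaft markers had negative differences for 6 of 6 genes, each with an unadjusted p under 0.05, and a median of -7.02. They summed to 12.2 to 8560 CPM in libraries labelled IL-17C+ and to 20.2 to 26.3 CPM in those labelled IL-17C+KO, ranges that overlap. Muscle markers had 7 of 7 positive differences there, 1 at an unadjusted p under 0.05, with a median of 1.09. The part of hair and muscle in these values was not tested. Cd4 was the 1 gene of 9 whose groups did not overlap, higher in both libraries labelled IL-17C+KO (11.7% of all genes). It stood at 1.49 ± 0.111 CPM (SD, n = 2) against 0.972 ± 0.127 CPM (SD, n = 3), a log2 difference of 0.61 ± 0.44 (SE; edgeR adjusted p 0.849). In sign, 4 of 9 differences were negative (51.1% of all genes). None was lower without overlap (9.2% of all genes), and 0 of 9 passed at an adjusted p (0% of 15568 genes) or an unadjusted p of 0.05 (3.73%). Age was not separated from genotype in these comparisons.

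The levels of the CD3 and zeta chains moved together over the 10 libraries, and that of Cd4 ran against them. Pearson's r of log2 CPM was 0.939 for Cd3g and Cd247, 0.934 for Cd3d and Cd247, 0.887 for Cd3e and Cd3g, and 0.557 for Cd3e and Cd3d. With the mean of Cd3e, Cd3d and Cd3g, r was 0.94 for Cd247, 0.7 for Cd28, 0.641 for Zap70, 0.405 for Cd8a, 0.384 for Lck and -0.55 for Cd4. Lck had an r of 0.636 with Cd3d alone and of 0.58 with Cd247. These values describe 10 libraries from 5 mice, each mouse giving 2 of them, and uninvolved skin of mice 2275 and 2465 held the 2 highest values of each of the 4 chains. The ratio of Cd4 counts to the summed counts of Cd3e, Cd3d and Cd3g was 0.0455, 0.178 and 0.15 in uninvolved and 0.449, 0.49 and 0.257 in lesional skin of mice 2275, 2296 and 2237. In mice 2465 and 2392 the ratio was 0.0901 and 0.208 in uninvolved and 1.6 and 0.402 in lesional skin. It was higher in the lesional biopsy in 5 of 5 mice, and the lesional values of all mice lay above all uninvolved ones.

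Transcripts of other cell types moved with the CD3 chains or against them. The counts of markers at an unadjusted p under 0.05 stand beside 21.5% of all genes tested over all 5 mice. Skeletal muscle markers (7 genes, none past the threshold, 6 lower at an unadjusted p under 0.05, median log2 change -2.92) summed to 5060 to 27000 CPM in uninvolved and 2160 to 4920 CPM in lesional IL-17C+ libraries. Under the label IL-17C+KO they summed to 24700 to 37300 CPM in uninvolved and 573 to 3360 CPM in lesional skin. The log2 sum of muscle markers had an r of 0.84 with the CD3 mean and of -0.74 with Cd4 over the 10 libraries, and no muscle marker was at 0 in any library. The 10 genes outside the set whose pattern was most like that of the CD3 mean, of 14341 compared, had r from 0.974 to 0.936. They were Pvalb (parvalbumin, a calcium buffer of fast muscle fibres), Hrasls, Mylk4, Gm15179, Mlf1, Prkag3 and Prkab2 (subunits of the AMP-activated kinase), 2310015D24Rik, Ccpg1os and Aqp4 (a water channel). Neutrophil markers (5 of 6 listed genes in the tables, 4 higher at an unadjusted p under 0.05, median 3.27) ran opposite, with an r of -0.927. They summed to 72.9 to 2400 CPM in uninvolved and 2190 to 12600 CPM in lesional IL-17C+ libraries, and to 59.9 to 773 and 4440 to 6060 CPM under the label IL-17C+KO; none was at 0 in a library. S100a8 and S100a9, at mean levels of 1280 and 1930 CPM, made up most of the neutrophil sums. Singly, Csf3r, Cxcr2 and Retnlg had r of -0.775, -0.889 and -0.798 with the CD3 mean. Csf3r was lowest in uninvolved skin of mice 2296 and 2237, at 2.19 CPM each. It stood at 2.23 and 3.37 CPM in uninvolved skin of mice 2275 and 2465. The part of muscle and of neutrophils in the values of the 9 genes was not tested.

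**Figure D3:**
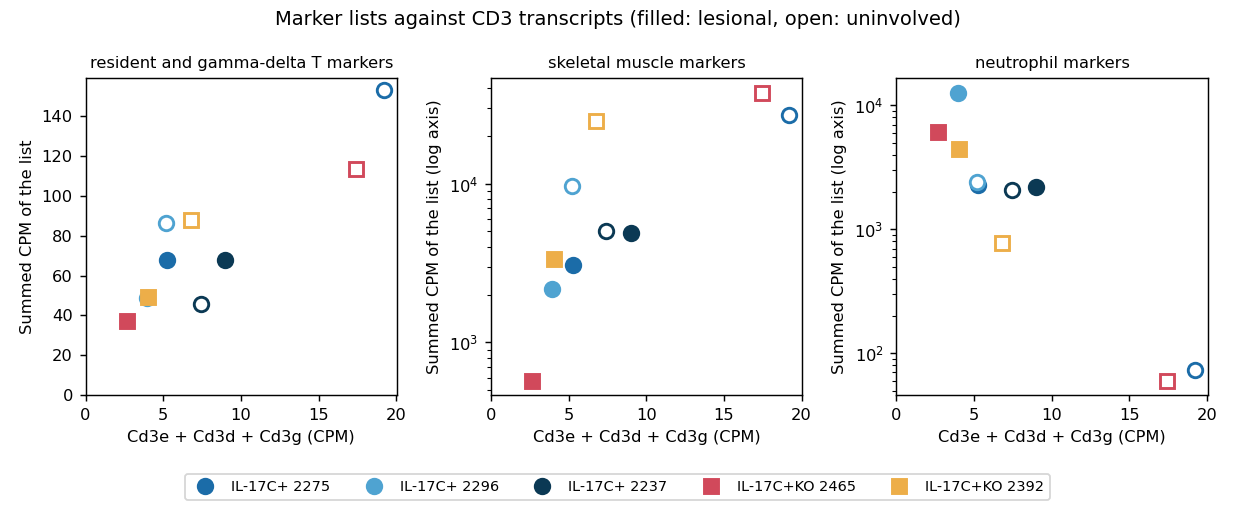
Summed CPM of 3 marker lists (y axis; linear for resident and gamma-delta T cell markers, log axes for skeletal muscle and neutrophils) against the sum of Cd3e, Cd3d and Cd3g in CPM (x axis) in the 10 libraries; open symbols are uninvolved and filled symbols lesional skin, circles IL-17C+ and squares IL-17C+KO. The 2 uninvolved libraries with the most CD3 transcripts, of mice 2275 and 2465, also hold the highest sums of the resident T cell and muscle lists. They hold the lowest sums of the neutrophil list, which are mostly S100a8 and S100a9.

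The summed markers of skin-resident and gamma-delta T cells followed the CD3 chains, though not every gene of the list did. The 10 such genes in the tables summed to 45.9 to 153 CPM in uninvolved and 48.6 to 68 CPM in lesional IL-17C+ libraries, and to 87.8 to 114 and 37.2 to 49.2 CPM under the label IL-17C+KO. Their log2 sum had an r of 0.848 with the CD3 mean, and Zbtb16 and Sox13, with mean levels of 22.6 and 13.7 CPM, were among its most abundant genes. Singly, r with the CD3 mean was 0.718 for Il2rb, 0.676 for Zbtb16, 0.67 for Xcl1, 0.648 for Itgae and 0.623 for Klrk1. It was lower for Cd160 (0.233), Blk (0.0431), Sox13 (-0.145) and Cd69 (-0.234). The members did not go one way: 3 had positive and 7 negative changes over all 5 mice, with a median of -0.255. At an unadjusted p under 0.05, 2 were higher and 1 lower. Over all genes tested, 50.6% were negative and 21.5% had such a p. Zbtb16 was at -1.33 ± 0.685 log2 units (SE) and lower in 4 of 5 mice. Blk, a kinase of B cells and gamma-delta T cells, was 1.25 ± 0.42 log2 units (SE; edgeR adjusted p 0.158) and higher in 5 of 5, and Cd69, a marker of activated and resident T cells, was 1.29 ± 0.45 (adjusted p 0.165), in 4 of 5. The gamma and delta constant genes were not analysed here. Some transcripts of NK and B cells were at 0: Klra4 was at 0 in all 10 libraries, Klra8 and Pax5 in 9, Ms4a1 in 4 and Ncr1 in 3. The NK cell receptors Klrb1b and Klrd1 were found in every library, at means of 5.66 and 1.4 CPM. The 9 NK markers summed to 5.41 to 11.4 CPM over all libraries and the 7 B cell markers to 1.27 to 4.13 CPM.

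Around the receptor, the genes named from lists of the same pathway went both ways in lesional skin, and none of the lists held a gene past the threshold in any comparison. The counts at an unadjusted p under 0.05 over all 5 mice are to be read against the 21.5% of all genes tested that had such a p. Of 20 accessory and costimulatory receptors tested (21 listed), 3 were higher and 1 lower at an unadjusted p under 0.05 over all 5 mice, with a median of 0.10. Icos, a costimulatory receptor of activated T cells, stood at 0.796, 1.22 and 0.785 CPM in uninvolved and at 2.51, 2.13 and 3.06 CPM in lesional skin of mice 2275, 2296 and 2237. In mice 2465 and 2392 Icos stood at 0.881 and 1.14 CPM and at 2.26 and 2.41 CPM. Every lesional library was above every uninvolved one, at a log2 change of 1.37 ± 0.28 (SE; edgeR adjusted p 0.0852). Pdcd1, the inhibitory receptor PD-1, held 5 to 18 counts in uninvolved and 22 to 69 in lesional libraries, a change of 1.76 ± 0.36 (adjusted p 0.0853), and was higher in 5 of 5 mice. Cd5, a receptor that dampens the signal, was 1.05 ± 0.36 (adjusted p 0.163), also higher in 5 of 5.

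Among 6 costimulatory ligands tested (9 listed), all 6 had positive changes and 2 an unadjusted p under 0.05. Cd80, a ligand of CD28 on antigen-presenting cells, had a log2 change of 1.90 ± 0.435 (SE; edgeR adjusted p 0.0992) and was higher in 5 of 5 mice, from 0.389 to 1.23 CPM in uninvolved to 1.59 to 4.54 CPM in lesional libraries. Icosl, the ligand of ICOS, was at 0.42 ± 0.17 and Tnfsf9, the ligand of 4-1BB, at 0.79 ± 0.35. Macrophages are among the cells that carry such ligands. Their markers had positive changes for 7 of 7 genes, 1 of them with an unadjusted p under 0.05, with a median of 0.30. Over all genes tested, 50.6% had a negative change and 21.5% an unadjusted p under 0.05. Lyz2 was higher in 2 of 5 mice, Adgre1, Csf1r, Mrc1 and Cd163 in 3, Fcgr1 in 4 and Cd68 in 5. The macrophage markers summed to 419 to 670 CPM in uninvolved and 434 to 934 CPM in lesional IL-17C+ libraries. Under the label IL-17C+KO they summed to 595 to 887 and 649 to 1560 CPM. None was at 0 in a library, and their part was not tested.

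The 17 proximal signalling genes had a median of 0.18, with 4 higher and 1 lower at an unadjusted p under 0.05, that is 5 of 17 against 21.5% of all genes. Lcp2 (SLP-76), the adaptor that ZAP-70 phosphorylates and that myeloid cells also use, was 1.38 ± 0.30 (SE; edgeR adjusted p 0.0929) and Fyb (ADAP), which binds it, 0.90 ± 0.27 (adjusted p 0.133), each higher in 5 of 5 mice. Trat1, an adaptor that sits in the receptor complex itself, went with the CD3 chains. It had 30, 6 and 17 counts in uninvolved and 4, 2 and 5 in lesional skin of mice 2275, 2296 and 2237, and 36 and 14 against 1 and 10 in mice 2465 and 2392. Its log2 change was -2.33 ± 0.58 (SE; edgeR adjusted p 0.108), lower in 5 of 5 mice, and with 1 to 5 counts in 4 of the lesional libraries its size is uncertain.

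Of the 17 downstream genes 3 were lower and none higher at an unadjusted p under 0.05 (21.5% of all genes had such a p), with a median of -0.225. Prkcq, the protein kinase C that links the receptor to NF-kappaB and is also abundant in muscle, was -1.13 ± 0.34 (SE; edgeR adjusted p 0.139), lower in 4 of 5 mice. Ppp3cb, a calcineurin subunit, was -0.57 ± 0.18 and Stim1, the calcium sensor of the endoplasmic reticulum, -0.98 ± 0.32. Of the 16 negative regulators 4 were higher and none lower at that p, again beside 21.5% of all genes, with a median of 0.265. Pag1, an adaptor that recruits the Lck inhibitor CSK, was 0.78 ± 0.24, the phosphatase Inpp5d (SHIP-1) 0.84 ± 0.30 and Ubash3b 0.58 ± 0.205, each higher in 4 of 5 mice.

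Of the genes listed for the T lineage at large, 11 of 14 tested had positive changes, with a median of 0.43. Over all genes tested, 50.6% were negative. At an unadjusted p under 0.05, 2 of the list were higher and 1 lower, beside 21.5% of all genes. The log2 sum of the list had an r of 0.00749 with the CD3 mean. Thy1, at a mean of 144 CPM, was its most abundant gene. Which cells of whole skin held these transcripts was not tested. Ccr7, the homing receptor to lymph nodes, was 1.06 ± 0.34 (SE; edgeR adjusted p 0.149) and higher in 5 of 5 mice. Itm2a, a membrane protein of T cells and of muscle, was -1.58 ± 0.30 (adjusted p 0.0764), lower in all 5 mice by CPM. The median of all 16083 genes tested was -0.01.

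**Figure D4:**
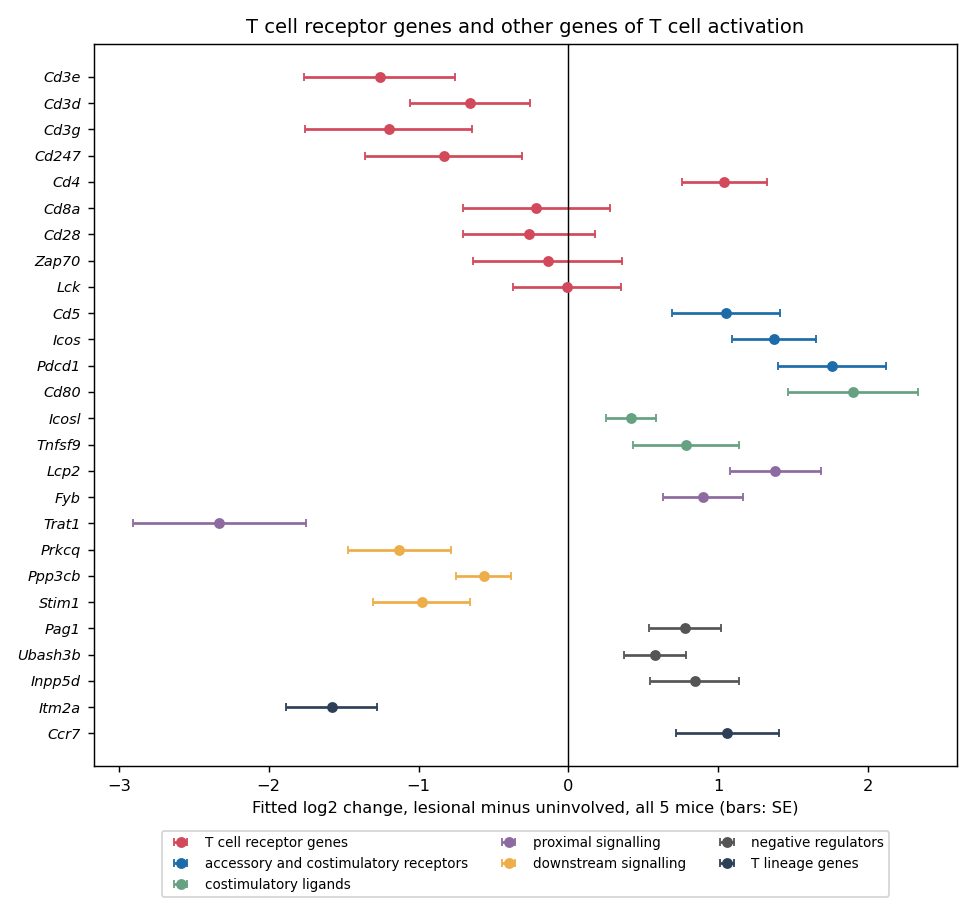
Fitted log2 change, lesional minus uninvolved, over all 5 mice (x axis, bars are SE) for the 9 T cell receptor genes and up to 3 genes of smallest p from each of 6 related lists (y axis, coloured by list). The CD3 chains, Trat1, Prkcq and Itm2a lie left of 0, and Cd4, Icos, Pdcd1, Cd80 and Lcp2 right of it; none passed the adjusted threshold.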

How the data were processed

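RNA from 10 skin biopsies of 5 mice was sequenced on an Illumina Genome Analyzer IIx, per the labels. The submitters' processing notes name cutadapt 1.6, TopHat2 2.0.12, HTSeq (no version), Cufflinks 2.2.1 and the mm10 genome. The deposited count values are whole numbers and were taken as raw read counts per gene; the deposited FPKM values were normalised to length and depth by the authors, and served here for levels between genes and 1 alternative test. Not given in the sources used here are the annotation and the settings for strand and multiple mapping.

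Each test ran in edgeR 4.0.16 under R 4.3.3 (filterByExpr with the groups, TMM, robust quasi-likelihood fits, Benjamini-Hochberg adjustment over all genes tested, threshold 0.05), and the procedure was tested on simulated data. Lesional and uninvolved skin were compared with the mouse as a block, since both biopsies came from each mouse per the design text. Those fits used all 10 libraries, so the lesional changes under the 2 labels share 1 estimate of the spread. Genotype labels were compared with 1 library per mouse. As a check of the pairing, the 2 libraries of each mouse were compared as deviations from the group means, and their correlations were -0.122 to 0.034. In the groups of 2 mice labelled IL-17C+KO the deviations mirror each other, so both mice have the same value (-0.071). These values do not bear the pairing out, which rests on the design text alone. All 9 genes passed the filter in each fit. Standard errors derive from the change and its F statistic. Levels are TMM-scaled CPM, and log2 differences per mouse and correlations use a prior count of 2. Counting intervals of ratios are 95% exact intervals by the Clopper-Pearson method; they and the limit of 3 counts hold no other error than that of counting. No 2 libraries held identical values, and their correlations were 0.837 to 0.986. P-values of the lesional changes, and of their difference between labels, measure how the differences within a mouse spread over these mice. Those between labels within a skin type measure the spread between these mice.

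Alternatives were DESeq2 1.42.0, limma 3.58.1 (voom, and log2(FPKM + 0.1) for genes with a mean FPKM of at least 0.1), DESeq2's size factors, no filter, no block or all 10 libraries as 4 groups, and each mouse left out. The 9 genes and the lists around them were chosen with earlier results of these data known. From each list, up to 3 genes with the smallest p over all 5 mice were to be named, with any past the threshold, and the 10 genes of at least 1 mean CPM most correlated with the CD3 mean. Some genes that this rule selects are not reported here. Other genes named with a count of 0 were chosen after their values were seen. Gene coordinates are from GENCODE M21 (GRCm38, the assembly of mm10), and promoter sequences from RefSeq (GRCm38.p6).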

Additional observations from a re-analysis of the deposited data

Results flagged for a closer look

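The lesional minus uninvolved log2 differences of 2 of the 9 genes held a mouse that stood apart from the other 4. For Cd3e it was mouse 2237, at 0.882 where the other mice lay between -1.90 and -1.38; its gap to the nearest other mouse was 0.813 of the whole range. For Lck it was mouse 2296, at 1.48 where the others lay between -0.626 and -0.0666, with a gap of 0.734 of the range. The critical value of Dixon's test for 5 values is 0.71, and chance puts about 1 in 20 groups above it. The differences of all 9 genes were looked at in this way.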

How the results depend on the processing

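For the 9 genes in 6 comparisons, 324 log2 changes were recomputed under other settings and 270 with 1 mouse left out. The sign was kept in 316 and 232 of them, and 2 values passed the threshold in any setting. The count of the 9 genes past the threshold was 0 in each main comparison and became 1 under 2 settings of the comparison over all mice, with DESeq2 (Cd4) and without mouse 2237 (Cd3e). Without the mouse as a block the count stayed at 0 in each comparison, and over all 5 mice the smallest adjusted p of the 9 was 0.0527 (Cd4) while 891 genes were called in place of 8. The block changed no call among the 9 genes. It turned the sign of Lck in IL-17C+ mice (-0.0101 without the block) and of the difference of lesional effects of Cd8a (-0.0173). Over all 5 mice Lck was 0.0123 with DESeq2's size factors, 0.0109 with DESeq2 and 0.15 on log2 FPKM, and Zap70 was 0.072 on log2 FPKM, a scale that moved the median of all genes to 0.12. Lck between labels in uninvolved skin was 0.0712 with limma-voom and 0.00959 on log2 FPKM. The cause of these turns was not tested.

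With 1 mouse left out, the sign depended on the mouse for these values, given from lowest to highest. In IL-17C+ mice Cd3g ran from -1.32 to 0.0694, Cd247 from -0.97 to 0.19, Lck from -0.37 to 0.66 and Cd28 from -0.38 to 0.60. In IL-17C+KO mice Cd3d ran from -1.94 to 0.21, Cd247 from -2.58 to 0.00697, Cd8a from -1.93 to 1.5 and Zap70 from -2.61 to 0.21. Over all 5 mice Lck ran from -0.34 to 0.16, Cd8a from -0.59 to 0.14, Cd28 from -0.60 to 0.0396 and Zap70 from -0.37 to 0.33. For the difference of lesional effects Cd3d ran from -1.42 to 0.74, Cd8a from -1.69 to 1.73, Lck from -0.96 to 0.0573, Cd3e from -1.39 to 0.092, Cd247 from -2.03 to 0.56 and Cd4 from -0.95 to 0.26. Between labels in lesional skin Cd3e ran from -1.12 to 0.0401, Cd28 from -1.03 to 0.18 and Cd4 from -0.44 to 0.99. In uninvolved skin Zap70 ran from -0.93 to 0.21, Cd3g from -0.63 to 1.33, Cd247 from -1.11 to 0.76, Lck from -0.58 to 0.27, Cd3e from -0.0597 to 0.99 and Cd3d from -1.32 to 0.27. Leaving out 1 of the 2 mice labelled IL-17C+KO leaves a lone library per skin type, whose spread is assumed to be that of the other groups. The lowest counts were those of Cd8a (4 to 31 in a library) and Cd28 (6 to 26).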

Other observations

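Cytotoxic effector genes were scarce and went both ways in lesional skin. Of 8 listed genes 5 were tested; Gzma was at 0 in 3 libraries and Ifng in 4. Prf1, which encodes perforin, held 99, 6 and 13 counts in uninvolved and 8, 4 and 13 in lesional skin of mice 2275, 2296 and 2237, and 73 and 33 against 2 and 17 in mice 2465 and 2392. Its log2 change over all 5 mice was -2.15 ± 0.71 (SE; edgeR adjusted p 0.153), and by CPM it was lower in lesional skin in 5 of 5 mice. Like the CD3 chains it was highest in uninvolved skin of mice 2275 and 2465. Nkg7, a granule protein of cytotoxic cells, was at -0.95 ± 0.48 and Cst7, a protease inhibitor of the same cells, at 0.85 ± 0.35. Regulatory T cell markers had positive changes for 5 of 7 genes, with a median of 0.312, where 50.6% of all genes tested were negative. Their sums ran from 50.7 to 61.6 CPM in uninvolved and from 35 to 44.7 CPM in lesional IL-17C+ libraries. Under the label IL-17C+KO the sums were 45.3 to 51 and 40.8 to 47 CPM. Tnfrsf18, at a mean of 31 CPM, and Ikzf2, at 11.1 CPM, were the most abundant of the 7. Ikzf2 (Helios), at -1.13 ± 0.43, was the 1 gene of the 7 with an unadjusted p under 0.05, which 21.5% of all genes had. Foxp3, the defining factor of these cells, was at 0.38 ± 0.605 and higher in 2 of 5 mice, Ctla4 at 0.673 ± 0.424 and higher in 3, and Ccr8 at 0.88 ± 0.419 and higher in 5. Of 7 dendritic and Langerhans cell markers 3 were positive and 4 negative, with a median of -0.0239. At an unadjusted p under 0.05, 2 of them were higher and 1 lower, beside 21.5% of all genes tested. Cd207 (langerin), a marker of Langerhans cells, was at -1.29 ± 0.30 and lower in 5 of 5 mice. Flt3, a receptor of dendritic cells, was at 0.976 ± 0.242 and Itgax (CD11c) at 1.06 ± 0.355, each higher in 5 of 5.

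The genes whose pattern over the 10 libraries was most like that of Cd4 were looked up after its values had been seen. Of 14341 genes, the highest r were those of Grasp (0.968), the collagen VI genes Col6a1 (0.959) and Col6a2 (0.951), and Cacna1g (0.956), followed by Faxc, Gpr153, Dcakd, Mrc2, Loxl2 (a collagen cross-linking enzyme) and Bgn (biglycan) at 0.939 to 0.946. None of these is in the lists of T cell genes. Lesional skin of mouse 2465 held both the highest Cd4 level (4.26 CPM) and the lowest levels of Cd3d, Cd3g, Cd247, Cd8a, Cd28 and Zap70, so that its Cd4 counts were 1.6 times the summed counts of Cd3e, Cd3d and Cd3g, where the other 9 libraries lay between 0.0455 and 0.49.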
